A study of Sus scrofa with 8 samples.

Results

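Transcripts of 38 genes that mark macrophages and other myeloid cells were followed in condylar cartilage from the temporomandibular joint of the pig, the jaw joint in which a fibrous disc lies between the condyle and the skull. The genes were listed by name, and a row of the table was taken as a member when its gene name was on the list, which gave 34 of 18898 genes. A further 2, CD74 and CSF2RA, had no name in the table and were found through their gene identifiers in reference tables, so that 36 had values. ITGAX and CYBB matched no row and were not analysed here. Of the 36 genes, 34 passed the filter on low counts and were tested; MARCO and TREM2 did not pass and are described by their counts.

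The osteoarthritis group held 4 libraries from wild-type pigs in which a piece of the disc had been removed with a 5.0 mm biopsy punch through its rear outer part, without cutting the disc's attachments. The control group held 4 libraries from wild-type pigs. The labels attach the same surgical text to all 8 samples and do not say whether controls had a sham operation, how long after surgery tissue was taken, or the animals' age or strain. They call the samples biological replicates without naming the animals, so p-values measure only the spread between these samples, which may be technical. RNA was taken from tissue, depleted of ribosomal RNA and sequenced.

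Macrophages are phagocytes that take up dead cells, matrix fragments and microbes through scavenger and pattern receptors, kill with an oxidase, and present antigen on MHC class II. Resident macrophages line the synovium and occupy marrow and vessels, while healthy cartilage itself holds few. Osteoclasts, the cells that resorb bone and calcified cartilage, arise from the same lineage, so both cell types transcribe many of the same genes, among them CD68, TYROBP and SPI1. The osteoclast enzyme gene ACP5 was therefore set beside the members, while CTSK, the osteoclast collagenase, matched no row and was not analysed here.

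Total estimated counts were 11354200 to 25412939 per library. The single most abundant gene took 17.6% to 22.8% of TPM in osteoarthritis libraries and 34.7% to 45.0% in controls, so levels were compared as CPM, counts scaled to library size and by TMM, and TPM, which corrects for gene length, was used to compare genes with each other. At this scaling a count of 0 allows up to 0.0801 to 0.472 CPM, the limit being widest in control replicate 2, and it covers counting error only. The TMM factor of control replicate 2 was 0.424, against 0.873 to 1.55 in the other libraries. Its CPM, and its place among the libraries, therefore depend most on the scaling, and TPM is also given for some of its values. Orders of libraries below are by CPM unless TPM is named. All 9 cartilage marker genes were detected in every library, with summed levels of 20294 to 139258 CPM in osteoarthritis and 7419 to 16779 CPM in controls. Bone genes were present too: COL1A1, a collagen that fibrous tissue also makes, supplied most of the osteoblast and osteocyte sum, and the other 7 genes summed to 6548, 5511, 6181 and 4501 CPM in osteoarthritis replicates 1 to 4, against 496, 4489, 535 and 5920.1 CPM in control replicates 1 to 4. Without COL1A1 this sum was lowest in control replicates 1 and 3, the controls in which osteoclast genes and most members were also low. Basal epithelial genes summed to 0.769 to 2.12 CPM in osteoarthritis and 89.1 to 372 CPM in controls. Control replicates 1 and 3 were the closest pair of libraries (Pearson r = 0.985 over genes tested), and they still differed by more than counting noise, with a chi-square of 28.5 per degree of freedom.

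No myeloid gene passed the test for a change between osteoarthritis and control. In edgeR's quasi-likelihood test 0 of 34 passed an adjusted p of 0.05, where 0.618% of the 16020 genes tested did. DESeq2 and limma-voom also called 0 of 34, where they called 5.27% and 0.743% of genes. At an unadjusted p under 0.05, edgeR gave 2 of 34 members higher and 0 lower in osteoarthritis, against 7.52% of all genes higher and 7.65% lower. In either direction at that unadjusted level, DESeq2 gave 5 of 34 members, against 16.6% of all genes, and limma-voom gave 2, against 16.1%. In no tested member did all 4 osteoarthritis libraries lie above all 4 controls, a pattern that 5.69% of all genes showed. In none did all 4 lie below, which 884 of the 16020 genes did. Since these are bulk samples, fewer cells of a type and less RNA per cell cannot be told apart.

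Most members had fold changes above 0, by an amount that depended on which libraries were included. A total of 25 of 34 had a log2 fold change above 0, where 50.4% of all genes did, and the median was 0.52 (range -0.59 to 1.85), against 0.0049 over all genes tested. Without osteoarthritis replicate 3 the median was 0.051 and 17 of 34 were above 0; without control replicate 4 it was 0.91. Leaving out both libraries, an alternative chosen after seeing the data, gave 0.66. Without control replicate 1 or 3 it was 0.28 and 0.30. Scaled by library size only, the median of all genes moved to 0.65 and all 34 members lay above 0, with a median of 1.18, which was 0.53 above that of all genes. On simulated counts of 16020 genes for this comparison, the test recovered 2.49% of 2-fold, 68.7% of 4-fold and 89.9% of 8-fold changes. The changed genes were drawn from the more abundant genes, not from the members. Members varied more within groups than the typical gene, as given below, so these shares may overstate recovery for them. A change as small as the median would seldom have been called.

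**Figure D1:**
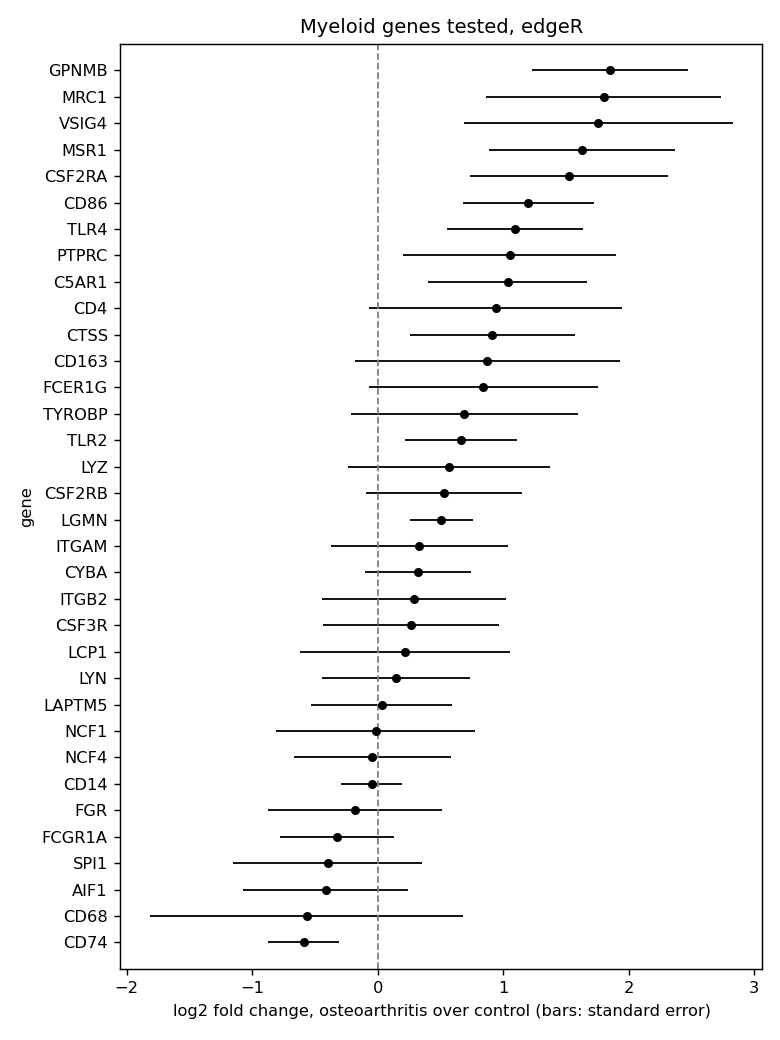
Log2 fold change of osteoarthritis over control for each of the 34 myeloid genes tested, with bars of 1 standard error. GPNMB lies highest at 1.85 and CD74 lowest at -0.59; none passed the adjusted threshold.

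The members peaked in the same libraries. Of the 34 tested members, 27 were highest in replicate 3 among osteoarthritis libraries, and 25 were highest in replicate 4 among controls. The lowest osteoarthritis library was replicate 2 for 20 members and replicate 1 for 12, and the lowest control was replicate 3 for 15 and replicate 1 for 13. Summed over the 36 genes with values, the level was 605, 580.3, 1289.5 and 786 CPM in osteoarthritis replicates 1 to 4, against 383, 1057, 396 and 1245 CPM in control replicates 1 to 4. Every osteoarthritis library lay above control replicates 1 and 3 in this sum, and 3 of 4 lay below control replicates 2 and 4. By TPM, control replicate 2 instead had the lowest sum of the 8 libraries, at 174. Control replicates 1, 3 and 4 had 296, 263 and 848 TPM, and osteoarthritis libraries 867 to 2074 TPM. The place of control replicate 2 thus depends on the scaling.

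**Figure D2:**
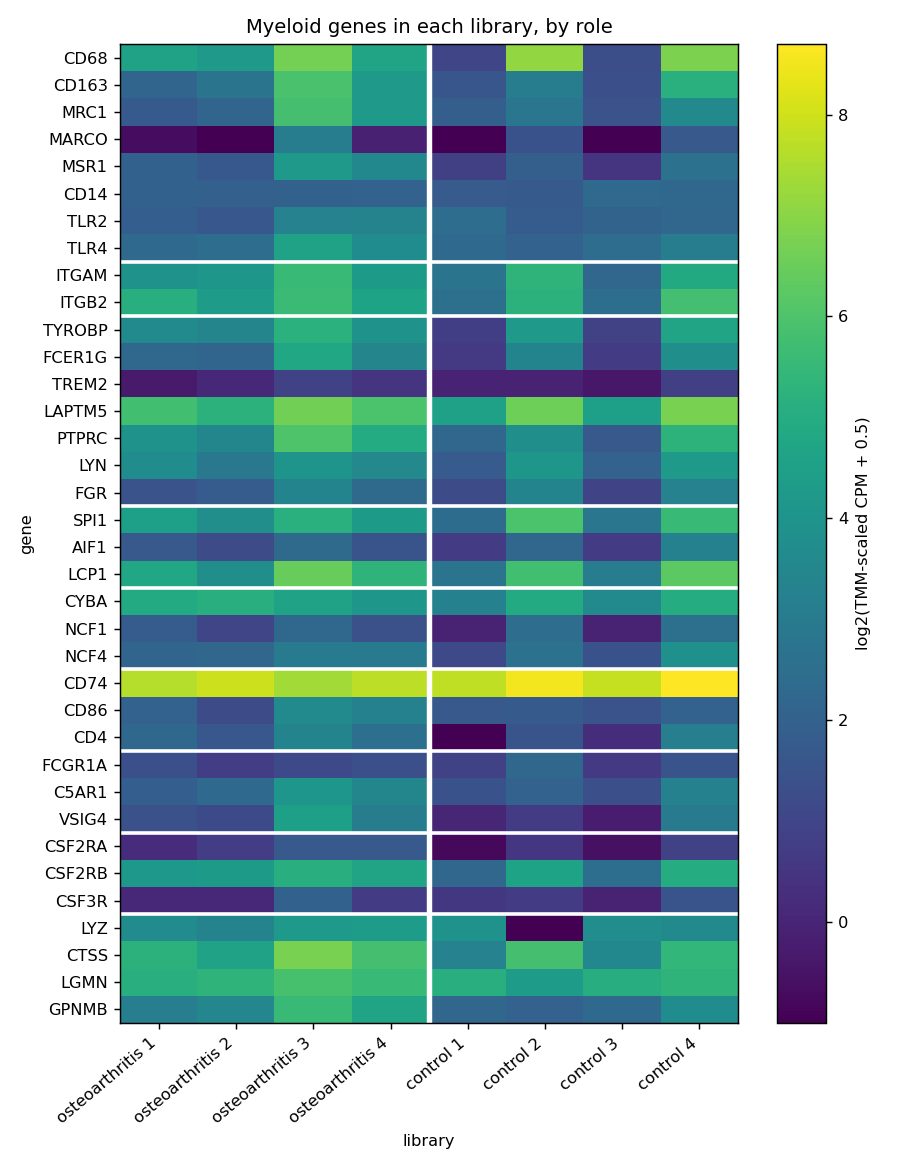
Level of each of the 36 myeloid genes in each of the 8 libraries, as log2(TMM-scaled CPM + 0.5), with osteoarthritis libraries left of controls and white lines between roles. Osteoarthritis replicate 3 and control replicate 4 are brightest for most genes, control replicates 1 and 3 darkest, and CD74 is bright throughout.

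Markers of blood and marrow cells were also highest in those libraries. HBB, the beta chain of haemoglobin, had 27.3, 14.7, 207 and 19.6 CPM in osteoarthritis replicates 1 to 4, against 0.841, 73.1, 2.90 and 970.2 CPM in control replicates 1 to 4. The 11 neutrophil genes found in the table summed to 15.4, 25.4, 141 and 9.83 CPM in osteoarthritis replicates 1 to 4, against 3.29, 6.30, 4.66 and 111 CPM in control replicates 1 to 4. MPO, the peroxidase that neutrophil precursors store, had 1, 0, 633 and 32 counts in osteoarthritis replicates 1 to 4, against 0, 3, 0 and 905 counts in control replicates 1 to 4. Osteoarthritis replicate 3 and control replicate 4 thus carried most of the MPO counts of their groups, and S100A8, S100A12, MPO and AZU1 had no counts in control replicates 1 and 3. All 11 neutrophil genes were detected in osteoarthritis replicates 3 and 4 and in control replicate 4, and 5 to 9 in the other libraries. The part of these cells in the myeloid levels was not tested.

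Scavenger and pattern receptors held both the widest and the narrowest spread. CD163, the receptor by which macrophages clear haemoglobin bound to haptoglobin (chr5:63300200-63334497 in RefSeq, assembly Sscrofa11.1), had 4.00, 6.18, 60.3 and 18.3 CPM in osteoarthritis replicates 1 to 4, against 2.52, 8.03, 2.11 and 35.4 CPM in control replicates 1 to 4. Its log2 fold change was 0.87 ± 1.06 (SE; edgeR adjusted p = 0.738), and it turned to -0.37 without osteoarthritis replicate 3. Osteoarthritis replicates 3 and 4 and control replicate 4 stood above the other 5 libraries. MRC1, the mannose receptor of tissue macrophages, had 2.83, 3.98, 57.3 and 18.5 CPM in osteoarthritis replicates 1 to 4, against 3.29, 6.46, 2.29 and 11.6 CPM in control replicates 1 to 4. The log2 fold change of MRC1 was 1.80 ± 0.93 (SE; edgeR adjusted p = 0.405), and 0.50 without osteoarthritis replicate 3, with osteoarthritis replicates 1 and 2 inside the control range. MSR1, a scavenger receptor for modified lipoproteins, had 3.57, 2.71, 17.8 and 11.03 CPM in osteoarthritis replicates 1 to 4, against 1.30, 3.31, 0.880 and 5.83 CPM in control replicates 1 to 4, a log2 fold change of 1.63 ± 0.74 (SE; edgeR adjusted p = 0.344). For MSR1, osteoarthritis replicates 3 and 4 exceeded every control, and replicates 1 and 2 did not; leaving out osteoarthritis replicate 3 gave 1.01, and leaving out control replicate 4 gave 2.35.

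MARCO, a scavenger receptor of macrophages that trap particles, had 2, 0, 275 and 16 counts in osteoarthritis replicates 1 to 4, against 0, 14, 0 and 56 counts in control replicates 1 to 4. Most of its counts were thus in osteoarthritis replicate 3, and its interval in RefSeq overlaps that of a pseudogene. CD14 varied far less. CD14, the co-receptor for bacterial lipopolysaccharide, had 3.57, 3.38, 3.55 and 3.61 CPM in osteoarthritis replicates 1 to 4, against 2.98, 2.83, 4.49 and 4.22 CPM in control replicates 1 to 4, the smallest spread of the members, with a log2 fold change of -0.05 ± 0.24 (SE; edgeR adjusted p = 0.948). TLR4, the receptor that CD14 serves, had 4.43, 4.99, 23.5 and 12.6 CPM in osteoarthritis replicates 1 to 4, against 4.51, 3.62, 5.01 and 8.09 CPM in control replicates 1 to 4 and a log2 fold change of 1.09 ± 0.54 (SE; edgeR adjusted p = 0.383). Osteoarthritis replicates 3 and 4 were above all controls for TLR4, while replicates 1 and 2 lay within them, and the fold change of TLR4 was 0.44 without osteoarthritis replicate 3. TLR2, which senses bacterial lipoproteins, ranged over 2.62 to 9.67 CPM in osteoarthritis and 2.99 to 4.97 CPM in controls, with the same 2 osteoarthritis libraries high.

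CD68, a lysosomal glycoprotein of macrophages and osteoclasts (chr12:52874754-52877256), had the largest spread of all members. It was measured at 23.6, 17.9, 103 and 24.9 CPM in osteoarthritis replicates 1 to 4, against 1.53, 139, 2.02 and 109 CPM in control replicates 1 to 4. By CPM the controls split, with replicates 2 and 4 above every osteoarthritis library and replicates 1 and 3 below all of them. By TPM, control replicates 1 and 3 were still the lowest, at 0.649 and 0.685. Control replicates 2 and 4, at 17.7 and 60.3 TPM, lay within the osteoarthritis range of 16.5 to 165 TPM. The log2 fold change was -0.57 ± 1.25 (SE; edgeR adjusted p = 0.870). Its sign turned when scaled by library size only (0.46), in limma-voom (1.20) and without control replicate 2 (0.19).

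Integrins and signalling adaptors followed CD68 only in part. TYROBP, the adaptor that carries signals from TREM2 and related receptors, had 12.1, 10.2, 36.2 and 15.0 CPM in osteoarthritis replicates 1 to 4, against 1.22, 18.1, 1.41 and 25.0 CPM in control replicates 1 to 4, a log2 fold change of 0.69 ± 0.90 (SE; edgeR adjusted p = 0.761). Control replicates 1 and 3 were the lowest of the 8 libraries and osteoarthritis replicate 3 the highest. FCER1G, the gamma chain shared by Fc receptors, ranged over 3.98 to 27.5 CPM in osteoarthritis and 1.07 to 13.9 CPM in controls. The beta-2 integrin chain ITGB2 ranged over 19.6 to 48.5 CPM in osteoarthritis and 5.19 to 55.2 CPM in controls, and its partner ITGAM, the complement receptor of phagocytes, over 15.1 to 47.5 CPM in osteoarthritis and 4.13 to 39.2 CPM in controls. In all 3 of these genes control replicates 1 and 3 were again the lowest libraries. TREM2, a lipid receptor of macrophages, was near the limit of the data, with 5, 7, 46 and 33 counts in osteoarthritis replicates 1 to 4, against 6, 3, 3 and 26 counts in control replicates 1 to 4.

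LAPTM5, a lysosomal membrane protein of blood cells, had 53.8, 37.0, 98.1 and 60.8 CPM in osteoarthritis replicates 1 to 4, against 22.9, 94.2, 21.5 and 106 CPM in control replicates 1 to 4, with a log2 fold change of 0.03 ± 0.56 (SE; edgeR adjusted p = 0.987). Control replicates 1 and 3 lay below every osteoarthritis library and control replicate 4 above all of them, and the sign of LAPTM5 turned in 4 alternatives. PTPRC, the CD45 phosphatase carried by every white blood cell, ranged over 10.6 to 65.1 CPM in osteoarthritis and 2.73 to 38.0 CPM in controls. The Src-family kinase LYN ranged over 6.94 to 15.5 CPM in osteoarthritis and 2.90 to 18.4 CPM in controls. Its relative FGR ranged over 2.27 to 9.81 CPM in osteoarthritis and 1.50 to 9.92 CPM in controls. Among regulators, SPI1, the PU.1 transcription factor that myeloid cells depend on, ranged over 13.2 to 35.3 CPM in osteoarthritis and 4.89 to 61.3 CPM in controls, with control replicates 2 and 4 above every osteoarthritis library. By TPM they were not, at 10.7 and 36.2, against 18.5 to 84.4 in osteoarthritis. LCP1, an actin-bundling protein of white cells, ranged over 13.2 to 86.9 CPM in osteoarthritis and 6.11 to 75.1 CPM in controls. AIF1, a macrophage calcium-binding protein, ranged over 1.86 to 4.64 CPM in osteoarthritis and 1.14 to 9.12 CPM in controls; its interval in RefSeq overlaps those of LST1 and NCR3, and reads of overlapping genes may not be told apart.

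Subunits of the phagocyte oxidase, which makes superoxide, were measured for 3 of 4 members. CYBA, the membrane subunit that many cell types also make, had 29.6, 33.2, 23.3 and 17.0 CPM in osteoarthritis replicates 1 to 4, against 9.10, 30.2, 11.9 and 31.4 CPM in control replicates 1 to 4, a log2 fold change of 0.32 ± 0.42 (SE; edgeR adjusted p = 0.764). Osteoarthritis replicates 3 and 4, high for the scavenger receptors, were the lowest of their group for CYBA. The cytosolic subunit NCF1 ranged over 1.52 to 4.40 CPM in osteoarthritis and 0.440 to 5.44 CPM in controls. NCF4, another cytosolic subunit, ranged over 4.00 to 7.63 CPM in osteoarthritis and 1.68 to 14.1 CPM in controls; NCF4 overlaps PVALB in RefSeq.

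Of the antigen presentation genes, CD74 and CD86 had different library orders. CD74, the invariant chain of MHC class II, was the most abundant member per length, at 498 ± 51.2 TPM in osteoarthritis and 239 ± 134 TPM in controls (SD, n = 4 each). It had 195, 248, 163 and 212 CPM in osteoarthritis replicates 1 to 4, against 218, 369, 231 and 415 CPM in control replicates 1 to 4. By CPM, control replicates 2 and 4 exceeded every osteoarthritis library, and control replicates 1 and 3 lay between osteoarthritis values. By TPM, control replicate 2 was instead the lowest library, at 90.7, against 446 to 559 in osteoarthritis. The log2 fold change was -0.59 ± 0.28 (SE; edgeR adjusted p = 0.366). Scaled by library size only it was 0.050. In control replicates 1 and 3, where CD74 was above 200 CPM, PTPRC had 4.13 and 2.73 CPM and TYROBP 1.22 and 1.41 CPM. CD86, the co-stimulatory ligand for T cells, had 3.63, 1.86, 11.6 and 9.16 CPM in osteoarthritis replicates 1 to 4, against 2.75, 2.83, 2.29 and 3.63 CPM in control replicates 1 to 4, with a log2 fold change of 1.20 ± 0.52 (SE; edgeR adjusted p = 0.323). All controls lay below osteoarthritis replicates 3 and 4 and above osteoarthritis replicate 2. CD4, a co-receptor of helper T cells that human monocytes also carry, had 71, 31, 335 and 201 counts in osteoarthritis replicates 1 to 4, against 0, 15, 8 and 169 counts in control replicates 1 to 4.

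Among receptors for antibody and complement, FCGR1A, the high-affinity IgG receptor, had 2.09, 1.18, 1.69 and 2.08 CPM in osteoarthritis replicates 1 to 4, against 1.38, 4.25, 1.06 and 2.40 CPM in control replicates 1 to 4, a log2 fold change of -0.33 ± 0.46 (SE; edgeR adjusted p = 0.777). Control replicate 2 was the highest library, and FCGR1A overlaps another protein-coding gene in RefSeq. VSIG4, a complement receptor of resident macrophages, was chosen after its values were seen and had 2.15, 1.78, 21.8 and 8.12 CPM in osteoarthritis replicates 1 to 4, against 0.535, 1.10, 0.352 and 7.60 CPM in control replicates 1 to 4. Osteoarthritis replicates 3 and 4 and control replicate 4 were its 3 highest libraries, as for CD163. C5AR1, the receptor for the complement fragment C5a, ranged over 3.26 to 16.8 CPM in osteoarthritis and 2.11 to 9.07 CPM in controls. Of the colony-stimulating factor receptors, CSF2RA had 0.676, 1.18, 2.75 and 2.80 CPM in osteoarthritis replicates 1 to 4, against 0.0764, 0.945, 0.176 and 1.37 CPM in control replicates 1 to 4, with a log2 fold change of 1.53 ± 0.79 (SE; edgeR adjusted p = 0.404), on an unplaced sequence of the assembly. CSF2RB, the shared signalling chain, ranged over 17.6 to 33.1 CPM in osteoarthritis and 4.05 to 31.9 CPM in controls, and CSF3R, the G-CSF receptor of neutrophils, over 0.553 to 3.58 CPM in osteoarthritis and 0.440 to 2.35 CPM in controls.

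GPNMB, a lysosomal glycoprotein that rises in lipid-laden macrophages and is also made by osteoclasts and osteoblasts, had the smallest p of the members (chr9:92037428-92071501). It had 8.48, 10.8, 47.0 and 25.1 CPM in osteoarthritis replicates 1 to 4, against 4.13, 3.62, 4.49 and 12.8 CPM in control replicates 1 to 4, 22.9 ± 17.7 CPM in osteoarthritis and 6.26 ± 4.37 CPM in controls (SD, n = 4 each), with a log2 fold change of 1.85 ± 0.62 (SE; edgeR adjusted p = 0.221). Osteoarthritis replicates 3 and 4 exceeded every control, and replicates 1 and 2 exceeded control replicates 1 to 3 but not control replicate 4. GPNMB was at 1.20 without osteoarthritis replicate 3 and 2.48 without control replicate 4, and its adjusted p was 0.0508 in DESeq2 and 0.111 to 0.430 over the fits with 1 library left out. LGMN, a lysosomal cysteine protease, had 34.2, 38.8, 58.9 and 46.8 CPM in osteoarthritis replicates 1 to 4, against 34.1, 20.2, 32.5 and 39.0 CPM in control replicates 1 to 4, a log2 fold change of 0.51 ± 0.25 (SE; edgeR adjusted p = 0.388). CTSS, the protease that trims the invariant chain, ranged over 23.4 to 106 CPM in osteoarthritis and 9.25 to 56.9 CPM in controls. LYZ, the lysozyme gene, had 12.2, 9.56, 18.4 and 19.4 CPM in osteoarthritis replicates 1 to 4, against 15.0, 0, 13.1 and 11.6 CPM in control replicates 1 to 4, with a log2 fold change of 0.57 ± 0.81 (SE; edgeR adjusted p = 0.780). Without control replicate 2 it was 0.16 ± 0.29 (SE; edgeR adjusted p = 0.853). LYZ was listed at 0 in that library, where the other members were mostly higher than in control replicates 1 and 3, and a count of 0 there allows up to 0.472 CPM.

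Per length, CD74 stood far above the rest. TYROBP followed at 125 ± 114 TPM in osteoarthritis and 20.1 ± 30.2 TPM in controls, LAPTM5 at 84.6 ± 55.3 TPM in osteoarthritis and 20.2 ± 22.3 TPM in controls and CYBA at 65.6 ± 12.3 TPM in osteoarthritis and 15.2 ± 13.6 TPM in controls (SD, n = 4 each). CD68 came next by the mean over all libraries, at 60.2 ± 70.2 TPM in osteoarthritis and 19.8 ± 28.1 TPM in controls. The order of CD68 and these last 3 differed between libraries and was not tested. TYROBP was above CD68 in every library but control replicate 2 (10.2 and 17.7 TPM). CD68 was above LAPTM5 and CYBA in osteoarthritis replicate 3 (165, against 160 and 81.4 TPM). The lowest member was FCGR1A, at 0.923 ± 0.371 TPM in osteoarthritis and 0.284 ± 0.172 TPM in controls. ACP5 stood at 1433 ± 718 TPM in osteoarthritis and 169.8 ± 260.2 TPM in controls, on average above CD74 in osteoarthritis and below it in controls. By CPM, ACP5 was 110-fold higher in control replicate 2 than in replicate 1, and 70.7-fold higher in control replicate 4 than in replicate 3. Its control mean thus averages unlike libraries. TPM levels carry the composition shift between groups described above. Except to show how the place of control replicates 2 and 4 depends on the scaling, they are not compared between groups here.

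Spread within groups was wider for osteoclast genes than for the members in controls, and alike in osteoarthritis. The SD of log2 CPM over 4 libraries had a median of 0.77 over the 34 members in osteoarthritis and 1.27 in controls. For the 16 osteoclast genes it was 0.67 in osteoarthritis and 2.68 in controls. For all genes tested within the members' range of mean level it was 0.35 in osteoarthritis and 0.37 in controls. Members thus varied more than the typical gene in both groups, and osteoclast genes varied more than members among controls; neither was tested, since genes of a list share their libraries. Without control replicate 4 the members' median in controls was 0.91, and without osteoarthritis replicate 3 their median in osteoarthritis was 0.47.

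**Figure D3:**
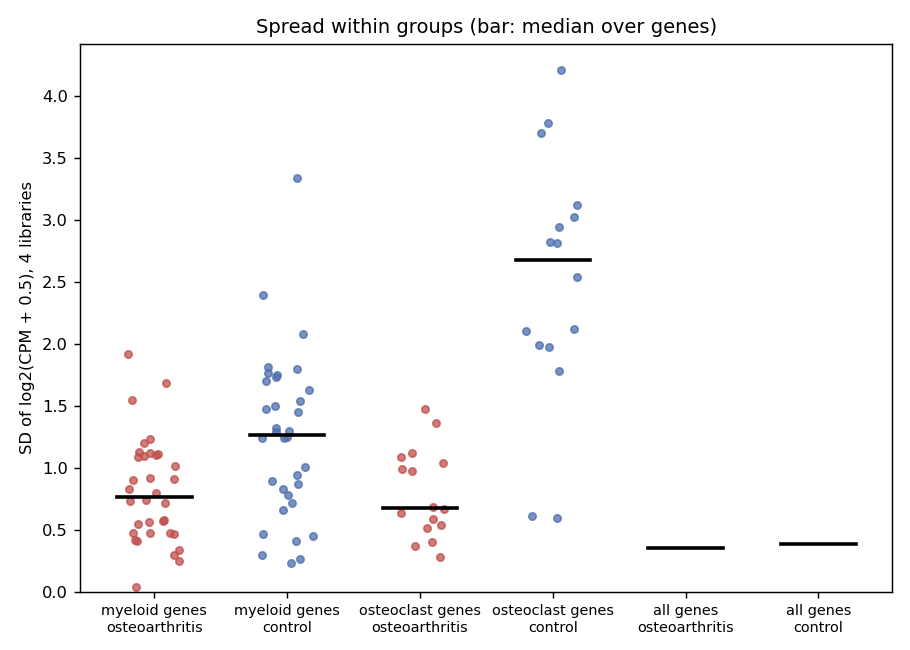
SD of log2(CPM + 0.5) over the 4 libraries of each group, 1 point per gene for myeloid and osteoclast genes, with the median as a bar; for all genes tested only the median is drawn. Medians in controls are 1.27 for myeloid and 2.68 for osteoclast genes, and in osteoarthritis 0.77 and 0.67.

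ACP5, the acid phosphatase of osteoclasts (chr2:70206159-70209855), had 1247, 706, 1086 and 448 CPM in osteoarthritis replicates 1 to 4, against 6.96, 768, 11.6 and 821 CPM in control replicates 1 to 4, with a log2 fold change of 1.12 ± 1.26 (SE; edgeR adjusted p = 0.719). That value was 3.31 in limma-voom, 1.90 when scaled by library size only and 1.76 without control replicate 4, none past the threshold. All 4 osteoarthritis libraries and control replicates 2 and 4 were high, and control replicates 1 and 3 were low. CA2, the carbonic anhydrase that supplies acid for resorption, had 96.9, 44.9, 41.0 and 42.7 CPM in osteoarthritis replicates 1 to 4, against 2.45, 37.3, 2.55 and 36.6 CPM in control replicates 1 to 4, and its groups did not overlap, with a log2 fold change of 1.52 ± 0.87 (SE; edgeR adjusted p = 0.444). OSTM1, a partner of the osteoclast chloride exchanger, had 19.7, 15.7, 37.2 and 24.1 CPM in osteoarthritis replicates 1 to 4, against 6.80, 13.4, 6.51 and 14.7 CPM in control replicates 1 to 4, a log2 fold change of 1.23 ± 0.36 (SE; edgeR adjusted p = 0.169). Of the 16 osteoclast genes 0 were called by edgeR and 1 by DESeq2, against 0.618% and 5.27% of all genes. CA2 and OSTM1, 2 of the 16, were higher in osteoarthritis without overlap, against 5.69% of all genes.

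The library order of myeloid and osteoclast genes was alike in part. By CPM, control replicates 2 and 4 had like levels of osteoclast genes: the median difference between them, replicate 2 minus replicate 4, was 0.09 on the log2 scale, with 0 of 16 genes over 2-fold apart either way. For the members that difference was -0.48, with 28 of 34 higher in replicate 4 and 10 of them over 2-fold. Both differences depend on the TMM factors, 0.424 and 1.04 in these libraries. By TPM the osteoclast genes summed to 261 in control replicate 2 and 1195 in control replicate 4. Another scaling would move both sets of genes about alike, so the contrast between the sets depends on it less. CD163 was 4.41-fold and VSIG4 6.89-fold higher in control replicate 4 than in replicate 2, where VSIG4 rests on 7 counts, and ACP5 was 1.07-fold higher. Control replicates 1 and 2 were far apart for osteoclast genes, with a median of -4.59 for replicate 1 minus replicate 2, against -1.50 for the members. In osteoarthritis, replicate 3 was highest for 10 of 16 osteoclast genes, as it was for most members, and replicate 1 for 5, ACP5 among them; CD163 was lowest in replicate 1. Between osteoarthritis replicates 1 and 4, the members' median difference, replicate 1 minus replicate 4, was -0.55 (27 of 34 lower in replicate 1), while osteoclast genes were at 0.69 for the same difference (11 of 16 higher in replicate 1).

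Ratios within a library, chosen after the values were seen, do not depend on the scaling. For every 100 counts of ACP5 there were 1.89, 2.53, 9.44 and 5.55 of CD68 in osteoarthritis replicates 1 to 4, against 22.0, 18.1, 17.4 and 13.3 in control replicates 1 to 4. CD68 was thus lower relative to ACP5 in every osteoarthritis library than in every control, although control replicates 1 and 3 rest on 20 and 23 counts of CD68. ACP5 was low in those controls too, and the share of all genes that would separate so was not counted. For CD163 the ratio to 100 counts of ACP5 was 0.320, 0.875, 5.55 and 4.08 in osteoarthritis replicates 1 to 4, against 36.3, 1.05, 18.2 and 4.31 in control replicates 1 to 4, and the groups overlapped. The same ratio for TYROBP was 0.971, 1.44, 3.34 and 3.35 in osteoarthritis replicates 1 to 4. In control replicates 1 to 4 it was 17.6, 2.36, 12.1 and 3.04, and the groups overlapped as well. By the SD over 8 libraries of the log2 ratio to ACP5, the members nearest to it were CD68 at 1.41 and TYROBP at 1.56, and LYZ was farthest at 3.79. Every tested member, CD68 and TYROBP included, lay nearer to PTPRC than to ACP5 by the same measure, with CD68 at 1.36 and TYROBP at 0.57 from PTPRC. That outcome was largely set by ACP5, which spanned 118-fold among controls. Even CD14, the member of smallest spread, lay 3.02 from ACP5. PTPRC is also a member itself, so the comparison does not show which cell type a member follows. The SD of the log2 ratio used log2(CPM + 0.5), so unlike the ratios it depends slightly on the scaling.

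**Figure D4:**
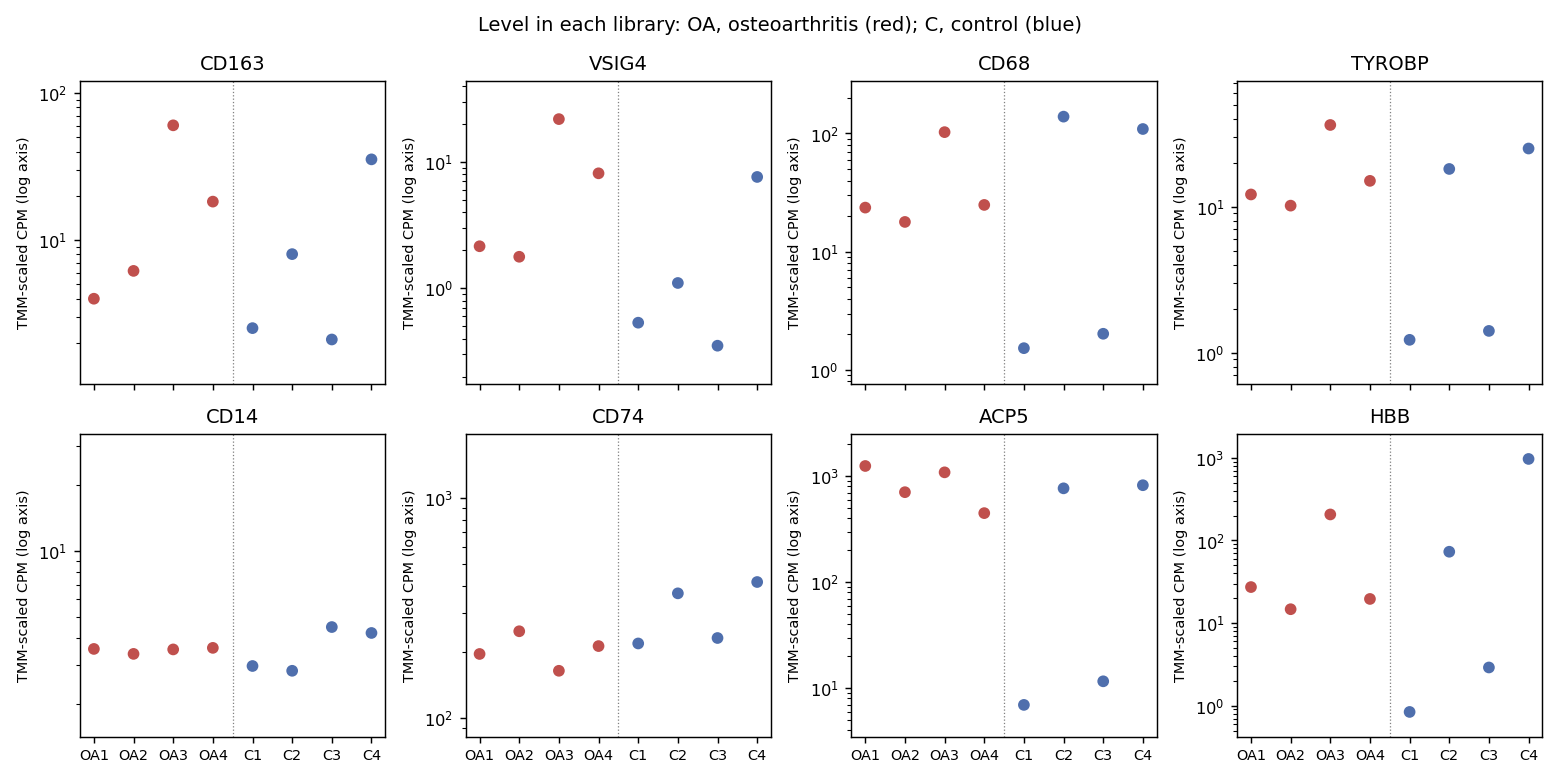
TMM-scaled CPM on log axes for 6 myeloid genes, ACP5 and HBB, with osteoarthritis (red) left of control (blue), 1 point per library. ACP5 and CD68 are low in control replicates 1 and 3 alone, CD163 and VSIG4 are highest in osteoarthritis replicate 3 and also high in osteoarthritis replicate 4 and control replicate 4, and of the 8 genes CD14 and CD74 vary least.

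Other myeloid genes from a list of 48, of which 42 were tested, also gave no call but leaned less upward than the members. By edgeR 0 of 42 and by DESeq2 0 of 42 were called, against 0.618% and 5.27% of all genes. Their median log2 fold change was 0.049 with 25 of 42 above 0, against 0.52 and 25 of 34 for the members. At an unadjusted edgeR p under 0.05, 3 were higher in osteoarthritis, against 7.52% of all genes, and 0 were lower, against 7.65%. The 3 were LYVE1, a hyaluronan receptor of resident macrophages and lymphatic vessels, CTSC, a lysosomal protease, and SLC11A1, a phagosomal metal transporter. CTSC had a log2 fold change of 0.81 ± 0.30 (65.8 ± 19.0 CPM in osteoarthritis and 37.6 ± 11.7 CPM in controls, edgeR adjusted p = 0.250). For SLC11A1 the log2 fold change was 1.35 ± 0.52 (4.54 ± 2.15 CPM in osteoarthritis and 1.74 ± 0.822 CPM in controls, edgeR adjusted p = 0.267). LYVE1 had 6.02, 4.99, 5.17 and 4.99 CPM in osteoarthritis replicates 1 to 4, against 3.59, 1.89, 4.05 and 1.62 CPM in control replicates 1 to 4, with a log2 fold change of 0.92 ± 0.33 (SE; edgeR adjusted p = 0.240), and was the 1 gene of this list whose groups did not overlap. Of all genes tested, 5.69% were higher in osteoarthritis without overlap. CSF1R, the receptor for the growth factor that both macrophages and osteoclasts need, was chosen after its values were seen and had 152, 97.2, 217 and 117 CPM in osteoarthritis replicates 1 to 4, against 13.2, 415, 14.9 and 378 CPM in control replicates 1 to 4. Like CD68, CSF1R was by CPM highest in control replicates 2 and 4 and lowest in control replicates 1 and 3. By TPM, control replicates 2 and 4 had 26.3 and 104, against 47.4 to 180 in osteoarthritis. For MHC class II, 0 of 5 tested genes were called and the median was 0.35. CIITA, the class II transactivator, had a log2 fold change of -0.85 ± 0.41 (11.3 ± 2.76 CPM in osteoarthritis and 20.5 ± 11.7 CPM in controls, edgeR adjusted p = 0.376). The fold change of SLA-DMA was 0.74 ± 0.53 (6.88 ± 2.83 CPM in osteoarthritis and 4.07 ± 3.30 CPM in controls, edgeR adjusted p = 0.549) on the log2 scale. SLA-DQA1 was at 0.56 ± 0.59 (34.4 ± 23.9 CPM in osteoarthritis and 23.3 ± 13.7 CPM in controls, edgeR adjusted p = 0.698) on that scale.

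The 14 lymphocyte genes found in the table summed to 152, 145, 154 and 152 CPM in osteoarthritis replicates 1 to 4, against 207, 235, 215 and 243 CPM in control replicates 1 to 4. Of these, edgeR called 0 of 9 tested and DESeq2 called 1, against 0.618% and 5.27% of all genes. CD79A, a chain of the B-cell receptor, made up most of the sum, with 119.9, 102, 77.7 and 99.0 CPM in osteoarthritis replicates 1 to 4, against 181, 199.7, 179 and 158 CPM in control replicates 1 to 4. Its groups did not overlap and its log2 fold change was -0.85 ± 0.20 (SE; edgeR adjusted p = 0.105). Of the 16020 genes tested, 884 were lower in osteoarthritis without overlap. Without CD79A the other 13 summed to 32.2, 43.0, 75.9 and 53.3 CPM in osteoarthritis replicates 1 to 4, against 26.8, 35.4, 36.0 and 85.4 CPM in control replicates 1 to 4, highest in osteoarthritis replicate 3 and control replicate 4, as for most members.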

How the data were processed

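Column-purified total RNA from tissue was depleted of ribosomal RNA and made into directional libraries, per the labels' protocols. The submitters' processing notes name MultiQC 1.13, DESeq2 1.26.0, Salmon 1.1.0, StringTie 2.1.0, STAR 2.7.9a and Trim Galore 0.6.7, and the pig assembly Sscrofa11.1. What each tool did, the strand setting, and how the 18898 genes were chosen are not given in the sources used here. Deposited by the authors were estimated counts (whole numbers), TPM, log2 TPM, which was not used, and, per the file headers, gene lengths from Salmon. Estimated counts can divide reads between similar genes. Names came with the file for 12365 genes; 555 were added by gene identifier and 564 by Entrez identifier. Coordinates are those of RefSeq for Sscrofa11.1.

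After filterByExpr had removed low counts and TMM had set the scaling, groups were compared with edgeR 4.0.16 (robust quasi-likelihood fit; R 4.3.3), with group as the sole term and Benjamini-Hochberg adjustment over 16020 genes. Fold changes are log2 of osteoarthritis over control; their standard error is the absolute log2 value over the root of F. The SD of log2 CPM used a pseudocount of 0.5. Alternatives were other scalings and filters, DESeq2 1.42.0, limma-voom (limma 3.58.1), a replicate block, 1 library left out, and a summed pair. The procedure was tested on simulated data with 200 genes changed in each of 3 runs; 3.31% of its calls there were unchanged genes. Members and lists were chosen with earlier results of these data known, so no p was adjusted over a list.

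Values in every library were set for the 8 members of smallest p, the 4 of highest TPM, the 4 of largest and 4 of smallest spread, ACP5 and 2 further osteoclast genes; up to 3 genes of smallest p were named from each other list. Further genes given in full (MARCO, TREM2, CD4, VSIG4, CSF1R, MPO) were chosen after their values were seen. List sums are in CPM, although TPM had been planned, because TPM carries the difference in composition between groups. TPM sums are given only where the place of control replicate 2 depends on the scaling. The labels name no batch.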

Additional observations from a re-analysis of the deposited data

Results flagged for a closer look

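Of 78 sets of 4 libraries examined, 6 held a library whose gap to its nearest neighbour exceeded Dixon's critical value of 0.829 of the range. Chance gives about 1 in 20 for a set of normal values. The CPM used here were not log-transformed, and the sets share the same libraries, so 6 of 78 cannot be judged against that rate. Osteoarthritis replicate 3 stood apart from the other osteoarthritis libraries for CD68 at 102.6 CPM (next highest 24.9), for MARCO at 8.13 CPM (next 0.427) and for ITGAM at 47.5 CPM (next 19.0). Control replicate 4 stood apart from the other controls for VSIG4 at 7.60 CPM (next 1.10) and for GPNMB at 12.8 CPM (next 4.49). Osteoarthritis replicate 1 stood apart for CA2, an osteoclast gene, at 96.9 CPM (next 44.9).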

How the results depend on the processing

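No alternative called a tested member: 0 passed under each of the 17 alternatives, among 32 to 36 members tested. Among all genes the count called, 99, was 214 with library size as the only scaling, 844 by DESeq2, 1 with the replicate block, 31 with control replicates 1 and 3 summed, and 14 to 152 with 1 library left out. The members' median log2 fold change, 0.52, was 0.051 to 0.91 with 1 library left out and 0.30 with the pair summed. Same-numbered samples did not deviate together (correlations of -0.015, -0.11, -0.38 and -0.23). The labels do not say whether the numbers pair the samples, and these few correlations cannot settle it. With the replicate block the members' median was 0.77 and ACP5, at 1.12 without it, was at 3.22. The median SD in controls, 1.27, was 0.953 with a pseudocount of 2 and 0.907 to 1.32 with 1 control left out; in osteoarthritis, 0.77, it was 1.02 with library size alone and 0.465 to 0.895 with 1 library left out.

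Of 322 pairs of a named gene and an alternative, 16 turned the sign, all of uncalled values, and 1 was called, OSTM1. Scaled by library size only, CD74 was at 0.050, CD68 at 0.46, CD14 at 0.56 and FCGR1A at 0.49. CD68 was at 1.20 in limma-voom, 0.91 with the replicate block and 0.19 without control replicate 2 (-1.50 to 0.19 with 1 library left out), and FCGR1A was at 0.11 without that library (range -0.55 to 0.11). LAPTM5 was at -0.28 without osteoarthritis replicate 3, -0.22 and -0.23 without control replicates 1 and 3, and -0.22 with that pair summed (-0.28 to 0.45 with 1 library left out). CD163 was at -0.37 without osteoarthritis replicate 3 (range -0.37 to 2.46). CD14 was at 0.071 and 0.020 without control replicates 3 and 4 (range -0.16 to 0.071), and 0.020 without both control replicate 4 and osteoarthritis replicate 3. The cause was not tested. Of 36 members, 17 had under 20 counts in a library, and 8 in 3 or more (MARCO, TREM2, CSF2RA, CSF3R, VSIG4, CD4, NCF1 and FCGR1A), which limits their precision.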

Other observations

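Companion lists, read the same way, are given here with their genes of smallest p. The p-values are edgeR's, adjusted over all genes. Of all 16020 genes tested, edgeR called 0.618% and DESeq2 5.27%. Each value is a log2 fold change ± SE, followed in brackets by the mean level ± SD over 4 libraries of each group. All 5 basal epithelial genes fell in osteoarthritis: the keratin KRT5 averaged 0.509 ± 0.203 CPM in osteoarthritis and 111 ± 57.0 CPM in controls (SD, n = 4 each), with a log2 fold change of -7.84 ± 0.57 (SE; edgeR adjusted p = 0.00290), KRT14 averaged 0.428 ± 0.253 CPM in osteoarthritis and 93.3 ± 52.2 CPM in controls (SD, n = 4 each), and TP63 averaged 0.00668 ± 0.0134 CPM in osteoarthritis and 4.87 ± 2.12 CPM in controls (SD, n = 4 each). Of 9 chondrocyte genes edgeR called 0 and DESeq2 called 7, with COL9A1, a collagen of cartilage, at 3.44 ± 0.66 (3045 ± 1933 CPM in osteoarthritis and 280.3 ± 172 CPM in controls, edgeR adjusted p = 0.0592), CNMD at 4.13 ± 0.81 (8.88 ± 8.35 CPM in osteoarthritis and 0.467 ± 0.290 CPM in controls, edgeR adjusted p = 0.0659) and HAPLN1 at 2.18 ± 0.48 (2358 ± 954 CPM in osteoarthritis and 519 ± 206 CPM in controls, edgeR adjusted p = 0.0883). Of 8 osteoblast and osteocyte genes edgeR called 0 and DESeq2 called 1, with ALPL, the alkaline phosphatase of bone, at 2.36 ± 0.85 (674 ± 261 CPM in osteoarthritis and 131 ± 131 CPM in controls, edgeR adjusted p = 0.248), IBSP at 2.06 ± 1.22 (1927 ± 607 CPM in osteoarthritis and 462 ± 528 CPM in controls, edgeR adjusted p = 0.460) and PHEX at 1.01 ± 1.03 (128 ± 102 CPM in osteoarthritis and 63.7 ± 67.5 CPM in controls, edgeR adjusted p = 0.687). Endothelial genes gave 0 calls of 6, with KDR, a receptor of VEGF, at 1.08 ± 0.43 (62.2 ± 15.2 CPM in osteoarthritis and 29.6 ± 18.2 CPM in controls, edgeR adjusted p = 0.286), EMCN at 0.37 ± 0.22 (12.2 ± 2.58 CPM in osteoarthritis and 9.48 ± 1.64 CPM in controls, edgeR adjusted p = 0.455) and TEK at 0.52 ± 0.37 (17.8 ± 6.48 CPM in osteoarthritis and 12.5 ± 5.61 CPM in controls, edgeR adjusted p = 0.543).

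Among other blood cell lists, 0 of 3 tested neutrophil genes were called, with LCN2 at 2.73 ± 1.04 (14.3 ± 8.25 CPM in osteoarthritis and 1.96 ± 3.16 CPM in controls, edgeR adjusted p = 0.267), CXCR2 at 0.87 ± 0.92 (2.09 ± 2.31 CPM in osteoarthritis and 1.16 ± 1.07 CPM in controls, edgeR adjusted p = 0.696) and ELANE at -0.51 ± 0.60 (2.68 ± 1.88 CPM in osteoarthritis and 3.79 ± 3.07 CPM in controls, edgeR adjusted p = 0.732). Of 3 erythroid genes 0 were called, with SLC4A1 at -2.63 ± 1.70 (3.94 ± 6.05 CPM in osteoarthritis and 24.7 ± 46.3 CPM in controls, edgeR adjusted p = 0.503), HBB at -1.96 ± 1.76 (67.0 ± 93.1 CPM in osteoarthritis and 262 ± 473 CPM in controls, edgeR adjusted p = 0.638) and ALAS2 at -1.52 ± 1.59 (2.63 ± 3.99 CPM in osteoarthritis and 7.59 ± 13.7 CPM in controls, edgeR adjusted p = 0.696). Of 3 mast cell genes 0 were called, with GATA2 at -1.01 ± 0.44 (1.65 ± 0.408 CPM in osteoarthritis and 3.35 ± 2.01 CPM in controls, edgeR adjusted p = 0.325), MS4A2 at 1.81 ± 0.93 (3.30 ± 3.28 CPM in osteoarthritis and 0.888 ± 0.966 CPM in controls, edgeR adjusted p = 0.400) and KIT at 0.63 ± 0.69 (4.75 ± 3.50 CPM in osteoarthritis and 2.98 ± 2.63 CPM in controls, edgeR adjusted p = 0.709). Further lymphocyte genes were JCHAIN at 1.38 ± 0.89 (3.96 ± 3.74 CPM in osteoarthritis and 1.47 ± 1.43 CPM in controls, edgeR adjusted p = 0.502) and CD2 at -0.74 ± 0.56 (3.66 ± 1.26 CPM in osteoarthritis and 6.15 ± 4.80 CPM in controls, edgeR adjusted p = 0.566).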
